A study of Homo sapiens with 6 samples.

Results

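The kinases described here phosphorylate the serine- and arginine-rich (SR) proteins and the spliceosome: the 4 CDC2-like kinases CLK1, CLK2, CLK3 and CLK4, the SR protein kinases SRPK1 and SRPK2, the PRP4 kinase PRPF4B and the dual-specificity kinase DYRK1A. They were taken from the deposited table by gene symbol, and all 8 had a row among 12306. The table holds 6 RNA-seq libraries of 92.1 cells, an established human uveal melanoma line with an activating mutation of the G protein gene GNAQ. The VS-4718 group had been given this inhibitor of focal adhesion kinase at 1 µM for 2 h, and the vehicle group DMSO for the same time, with 3 libraries in each. The design text calls the libraries independent, but whether they came from separate cultures is not said, so errors measure the spread between these libraries, which may be technical.

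Expression was deposited on a log2 scale and behaves as TPM, abundance per transcript length on a fixed total; read depth is unknown. Fold changes are VS-4718 minus vehicle in log2 units, or the ratio of geometric means, with limma's moderated standard error (SE). The row names follow mouse usage, 9349 of them being current human symbols, and the transcript set behind the rows is not stated in these sources. A level is therefore that of a row. The lineage markers PMEL, SOX10, MITF, TYRP1 and GPR143 had high or moderate values in both groups, whereas MLANA, TYR and DCT were too low to be tested. The 5 fibroblast rows summed to between 1.22 and 1.72 TPM-like units with VS-4718 and between 0.630 and 1.51 in vehicle, and the immune marker with a row, PTPRC, was at 0.0451 to 0.0592 with VS-4718 and 0.0259 to 0.142 in vehicle. PTK2, which encodes the drug's target, had 16.3, 17.8 and 18.3 TPM-like units with VS-4718, against 26.1, 18.6 and 14.9 in vehicle (log2 fold change -0.15, SE 0.20, limma adjusted p = 0.84).

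SR proteins bind pre-mRNA and recruit the splicing machinery, and how far their RS domains are phosphorylated sets where they are in the cell and what they bind. SRPK1 and SRPK2 act mainly in the cytoplasm, where phosphorylation lets SR proteins be imported, while the CLK kinases act mainly in the nucleus and release SR proteins from speckles. PRPF4B phosphorylates spliceosome subunits during assembly, and DYRK1A phosphorylates splicing factors among many other substrates. Part of the CLK1 and CLK4 transcripts of human and mouse cells is known to stay in the nucleus with introns retained, as a pool that can be spliced later. The rows of the table are per gene and do not separate such forms.

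The CLK kinases are also called LAMMER kinases after a conserved signature in the kinase domain. The coding bases of that signature are shown because they show how near the 4 genes are to each other within it. They come from the principal GENCODE 29 transcripts on GRCh38, each from a single coding exon, at chr2:200854648-200854680 on the minus strand for CLK1, chr1:155264253-155264285 on the minus strand for CLK2, chr15:74628619-74628651 on the plus strand for CLK3 and chr5:178605335-178605367 on the minus strand for CLK4. Capitals mark the bases that all 4 genes share, 20 of 33.
CLK1: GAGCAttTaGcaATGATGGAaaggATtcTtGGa
CLK2: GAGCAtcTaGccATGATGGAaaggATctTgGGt
CLK3: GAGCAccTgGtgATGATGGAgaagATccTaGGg
CLK4: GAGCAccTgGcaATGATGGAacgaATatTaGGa
CLK1, CLK2 and CLK4 encoded the signature at all 11 of its codons and CLK3 at 9. Relative to CLK1, the stretch was identical at 27 bases in CLK2, 23 in CLK3 and 25 in CLK4.

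Over the whole coding sequence CLK1 and CLK4 were the closest pair of the family, with 77.1% identity over 1435 aligned bases; CLK2 and CLK3 followed with 66.9% over 1448. SRPK1 and SRPK2 had 66.0% over 1933 bases. CLK1 and PRPF4B, of different families, had 61.95% on this measure, more than the 60.17% of CLK1 and CLK2. Values near 60% therefore do not set the CLK family apart. Words of 31 bases, the default unit of matching in kallisto (the authors' setting is not stated), were compared over all GENCODE 29 transcripts of each gene. CLK1 and CLK4 shared 40 such words, 0.746% of those of CLK1. CLK2 shared 320 words, 8.34% of its own, with CLK2P1, a pseudogene that had no row. No other pair of the 8 genes shared a word except CLK3 and DYRK1A, with 7. Counted against all other genes, the share of words found elsewhere ran from 2.05% in CLK1 to 8.37% in CLK3. For CLK3 this was 1739 words, 647 of them in EDC3. These are figures for human transcripts; how reads were divided between CLK1 and CLK4 was not tested.

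In GENCODE 29 all 8 genes are protein coding. CLK1 lies on the minus strand of chromosome 2 from 200853009 to 200864744, CLK2 on the minus strand of chromosome 1 from 155262868 to 155278491, CLK3 on the plus strand of chromosome 15 from 74598500 to 74645414 and CLK4 on the minus strand of chromosome 5 from 178602664 to 178630615. SRPK1 lies on chromosome 6 from 35832966 to 35921342, SRPK2 on chromosome 7 from 105110704 to 105399308, PRPF4B on chromosome 6 from 4021267 to 4064983 and DYRK1A on chromosome 21 from 37365573 to 37526358. CLK1 had 15 annotated transcripts, 8 of them with a retained intron, CLK3 had 27 with 8 and CLK4 had 15 with 7, while CLK2 had 7 transcripts and none of that type. SRPK1 and DYRK1A had 4 each, SRPK2 had 2 and PRPF4B had 1. At least 7 retained-intron transcripts were annotated for 7.22% of the 7352 tested rows that carry the name of a protein-coding gene, and at least 1 for 63.3%. The limit of 7 is the CLK4 count, the lowest of CLK1, CLK3 and CLK4, so the 7.22% is a description only.

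Because the 4 CLK rows had higher values together, their promoters are shown as well, from 250 bases before to 50 after the RefSeq start nearest to that of the principal transcript (GRCh38.p14). They lie at chr2:200864609-200864908 for CLK1, chr1:155273455-155273754 for CLK2, chr15:74608122-74608421 for CLK3 and chr5:178627001-178627300 for CLK4, that of CLK3 on the plus strand and the others on the minus strand. Capitals mark matches on either strand to the motifs searched.
CLK1: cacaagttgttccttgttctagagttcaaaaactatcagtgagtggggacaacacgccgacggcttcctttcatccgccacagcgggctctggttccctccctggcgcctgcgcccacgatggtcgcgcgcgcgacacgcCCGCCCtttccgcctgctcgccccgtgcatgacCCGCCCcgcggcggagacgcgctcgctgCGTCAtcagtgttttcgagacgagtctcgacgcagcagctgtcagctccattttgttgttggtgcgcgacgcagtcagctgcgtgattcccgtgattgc
CLK2: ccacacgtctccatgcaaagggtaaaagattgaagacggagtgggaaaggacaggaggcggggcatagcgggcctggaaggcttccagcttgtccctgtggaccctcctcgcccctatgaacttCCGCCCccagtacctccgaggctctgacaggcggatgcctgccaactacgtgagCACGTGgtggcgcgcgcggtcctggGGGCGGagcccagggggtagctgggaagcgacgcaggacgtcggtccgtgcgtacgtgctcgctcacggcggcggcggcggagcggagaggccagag
CLK3: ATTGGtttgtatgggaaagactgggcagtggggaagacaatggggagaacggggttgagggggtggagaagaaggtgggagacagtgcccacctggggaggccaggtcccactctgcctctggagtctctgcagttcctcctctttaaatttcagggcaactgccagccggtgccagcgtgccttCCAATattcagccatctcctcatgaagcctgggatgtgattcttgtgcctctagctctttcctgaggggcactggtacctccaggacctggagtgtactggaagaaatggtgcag
CLK4: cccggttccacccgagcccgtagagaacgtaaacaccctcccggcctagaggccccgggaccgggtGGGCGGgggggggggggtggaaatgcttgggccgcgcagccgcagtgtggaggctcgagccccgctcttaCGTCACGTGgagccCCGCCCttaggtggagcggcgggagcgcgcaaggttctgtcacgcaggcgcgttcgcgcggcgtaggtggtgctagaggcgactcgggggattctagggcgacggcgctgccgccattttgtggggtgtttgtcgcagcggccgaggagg
The GC box GGGCGG was found at 2 places each in CLK1, CLK2 and CLK4, and 44.95% of 35116 RefSeq promoters of this length hold it. The CRE core TGACG was found in CLK1 and CLK4 (24.6% of promoters), and the E-box CACGTG in CLK2 and CLK4 (7.26%); in CLK4 the CRE core and the E-box overlap. CLK3 held none of these and had 2 CCAAT boxes (CCAAT, 34.6% of promoters). No motif was found in all 4 windows. CLK1 and CLK3 have 2 RefSeq promoter entries each, and only the nearest was searched. The RefSeq start used lay 217 bases from that of the principal transcript in CLK2, against 41 in CLK1, 0 in CLK3 and 64 in CLK4. The CLK2 window is thus offset from the principal start. In SRPK1 the distance was 244 bases. Among the other kinases, the windows of SRPK1 and DYRK1A held the GC box at 4 and 3 places, and that of SRPK2 held the CRE core and a TATA box. The ETS site CCGGAAG (10.3% of promoters), the TEAD site GGAATG (14.03%), the TATA box TATAAA (11.5%), the CArG box (1.29%), the AP-1 site TGANTCA (7.71%) and the heat shock element core GAANNTTC (6.77%) were in none of the 4 CLK windows. The GC content of these was 62.7% in CLK1, 67.0% in CLK2, 56.0% in CLK3 and 70.7% in CLK4, against a median of 58.7%.

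The 8 genes were chosen by family after the higher CLK values with VS-4718 than in vehicle were known; the values that chose them are these same fold changes, so their fold changes are a description and carry no test. All 4 CLK genes had higher values with VS-4718, by 1.76-fold to 2.30-fold, and in each the lowest VS-4718 library lay above the highest vehicle library. The other 4 kinases lay between 0.779-fold and 1.14-fold. The median log2 fold change was 1.00 over the 4 CLK genes and -0.14 over the other 4, against -0.03 over all 9229 tested rows, the central 90% of which lay between -0.39 and 0.33.

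**Figure D1:**
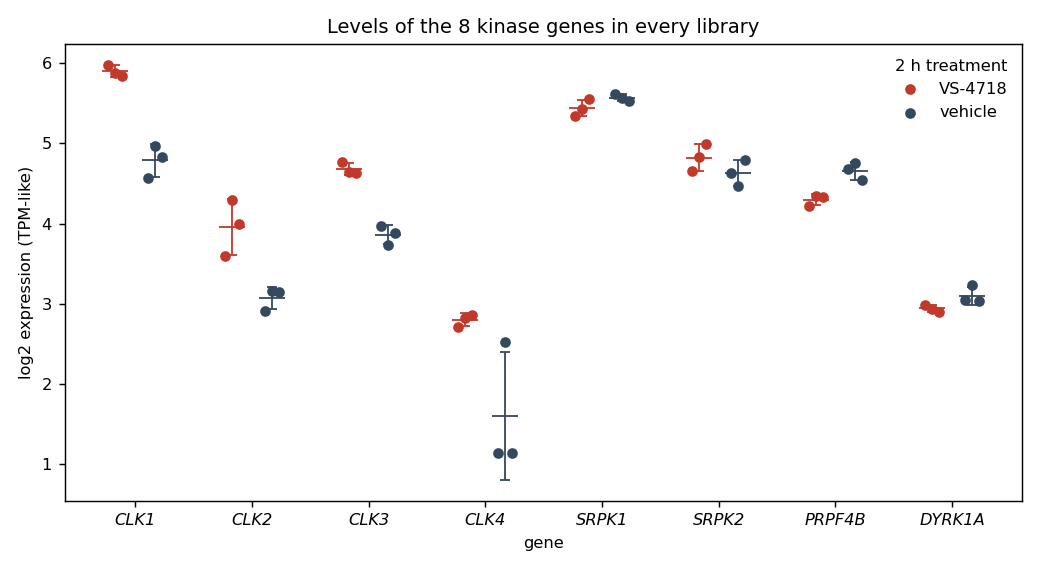
Log2 expression (TPM-like) of the 8 kinase genes in each library, VS-4718 left in red and vehicle right in dark blue; points are libraries, horizontal marks are means and bars are 1 SD (n = 3 each). The 4 CLK genes separate by group, and CLK4 has 1 vehicle library, at 2.52, far above the other two.

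CLK1, the best studied kinase of the family, had 63.1, 58.8 and 57.2 TPM-like units with VS-4718, against 23.7, 31.2 and 28.5 in vehicle. Its VS-4718 libraries lay close together and well above every vehicle library, the gap being 0.88 log2 units. The ratio was 2.16 (log2 fold change 1.11, SE 0.11). Only 0.228% of tested rows had a larger fold change.

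CLK4, the member nearest to CLK1 in sequence, had 6.56, 7.10 and 7.28 TPM-like units with VS-4718, against 2.21, 5.74 and 2.20 in vehicle. Vehicle replicate 2 stood well above the other vehicle libraries and not far below the VS-4718 ones, so the gap between groups was 0.19 log2 units. The log2 fold change was 1.20 (SE 0.37), and 1.66 (SE 0.14) without vehicle replicate 2. CLK4 was the lowest of the 8 genes in both groups, and its spread within groups exceeded that of 95.9% of tested rows.

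CLK2 had 12.1, 19.6 and 15.96 TPM-like units with VS-4718, against 7.54, 8.91 and 8.86 in vehicle. Its vehicle libraries were close to each other and its VS-4718 libraries were spread, with an SD of 0.35 log2 units against 0.14. The log2 fold change was 0.89 (SE 0.18). Leaving out VS-4718 replicate 2 gave 0.72, and leaving out VS-4718 replicate 1 gave 1.07.

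CLK3 had 27.1, 25.03 and 24.7 TPM-like units with VS-4718, against 15.7, 13.3 and 14.7 in vehicle. The groups were 0.65 log2 units apart, and this row had the smallest spread of the 4 CLK genes (pooled SD 0.10 log2 units). The log2 fold change was 0.81 (SE 0.09).

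Vehicle replicate 2 was the highest vehicle library for CLK1, CLK2 and CLK4 and the lowest for CLK3; for CLK2 it was nearly level with vehicle replicate 3. Summed over the 4 genes, the level was 108.9, 110.5 and 105.2 TPM-like units with VS-4718, against 49.1, 59.2 and 54.2 in vehicle. The means were 108.2 ± 2.73 with VS-4718 and 54.2 ± 5.03 in vehicle (SD, n = 3 each). CLK1 made up 53.2% to 57.9% of it with VS-4718 and 48.1% to 52.7% in vehicle. CLK3 made up 22.7% to 24.9% with VS-4718 and 22.5% to 32.0% in vehicle.

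**Figure D2:**
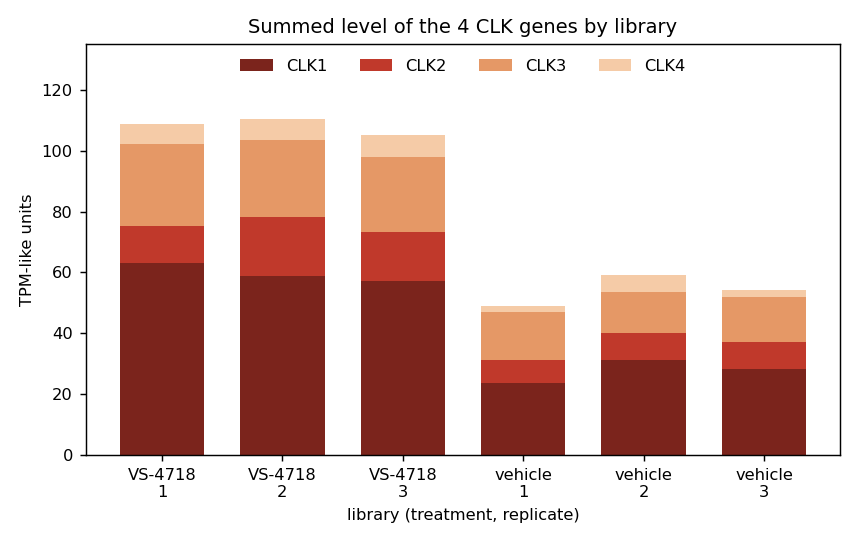
Stacked TPM-like values of CLK1, CLK2, CLK3 and CLK4 in each of the 3 VS-4718 and 3 vehicle libraries. The bars reach 105.2 to 110.5 with VS-4718 and 49.1 to 59.2 in vehicle, and CLK1 is the largest part of each.

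SRPK1, the most abundant of the 8 in vehicle, had 40.6, 43.1 and 46.8 TPM-like units with VS-4718, against 49.1, 47.3 and 46.1 in vehicle. VS-4718 replicate 3 lay inside the vehicle range and the other two lay below it. The log2 fold change was -0.13 (SE 0.07).

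SRPK2 had 25.1, 28.4 and 31.7 TPM-like units with VS-4718, against 24.8, 22.1 and 27.8 in vehicle. The groups overlapped, and its log2 fold change of 0.19 (SE 0.12) had the opposite sign to that of SRPK1. The sum of SRPK1 and SRPK2 was 71.9 ± 6.44 TPM-like units with VS-4718 and 72.4 ± 2.52 in vehicle (SD, n = 3 each).

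PRPF4B, which acts on the assembling spliceosome, had 18.6, 20.3 and 20.2 TPM-like units with VS-4718, against 25.7, 26.9 and 23.2 in vehicle. Every VS-4718 library lay below every vehicle library, and the log2 fold change was -0.36 (SE 0.09). Only 5.93% of tested rows had a lower fold change.

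DYRK1A had 7.94, 7.67 and 7.45 TPM-like units with VS-4718, against 8.24, 9.39 and 8.16 in vehicle. The groups did not overlap, but the gap was 0.04 log2 units, less than the SD within either group. The log2 fold change was -0.16 (SE 0.10).

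The limma fit called 12 of all tested rows (0.130%). CLK1 and CLK3 were the 2 members called higher at an adjusted p under 0.05, where 0.0433% of rows were, and no member was among the 0.0867% called lower. The groups did not overlap in 4 members that were higher with VS-4718, where this held for 5.15% of rows, and in 2 that were lower, where it held for 11.2%. Since the choice of members rests on the same comparison, nothing further is read from these counts.

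**Figure D3:**
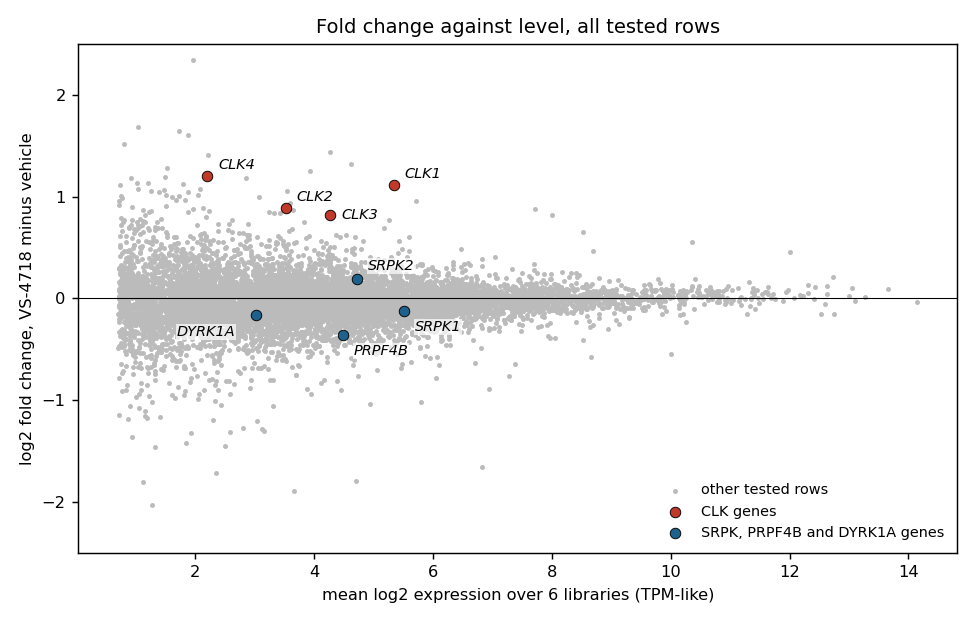
Log2 fold change (VS-4718 minus vehicle) against mean log2 expression for the 9229 tested rows; the CLK genes are in red, the other 4 kinases in blue and 7 rows beyond 2.5 log2 units are not drawn. The CLK genes lie at 0.81 to 1.20, at the upper edge of rows of like level, and the other 4 at -0.36 to 0.19, within the cloud.

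The order of levels differed between the groups. With VS-4718 it ran from CLK1 through SRPK1, SRPK2, CLK3, PRPF4B, CLK2 and DYRK1A to CLK4. There the ranges of SRPK2 and CLK3 overlapped, as did those of PRPF4B and CLK2, so these neighbours did not differ beyond their spread. In vehicle the order ran from SRPK1 through CLK1, PRPF4B, SRPK2, CLK3, DYRK1A and CLK2 to CLK4. There CLK1 overlapped with PRPF4B, PRPF4B with SRPK2, and DYRK1A with CLK2. CLK1 exceeded SRPK1 in each VS-4718 library, by 0.64, 0.45 and 0.29 log2 units, and lay below it in each vehicle library, by -1.05, -0.60 and -0.70.

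The CLK mean minus the mean of the other 4 kinases, taken within each library, was -0.04 ± 0.07 log2 units with VS-4718 and -1.16 ± 0.22 in vehicle (SD, n = 3 each). The CLK genes made up 49.7% to 54.1% of the summed level of the 8 with VS-4718 and 31.3% to 35.9% in vehicle.

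With each library left out in turn, every one of the 8 fold changes kept its sign. Only SRPK1 and SRPK2 could have changed sign, because in the other genes the groups do not overlap. CLK1 ran from 1.00 to 1.20 log2 units and CLK3 from 0.75 to 0.87. PRPF4B ran from -0.42 to -0.31, SRPK1 from -0.18 to -0.08, SRPK2 from 0.11 to 0.28 and DYRK1A from -0.19 to -0.09. The 2 calls were less steady than the fold changes: the number of members called was 0 without any 1 of the 3 VS-4718 libraries and without vehicle replicate 1 or 3, and 0 with limma's mean-variance trend left off. With no filter on low rows CLK1 was the only member called, and without vehicle replicate 2 the members called were CLK1 and CLK4.

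**Figure D4:**
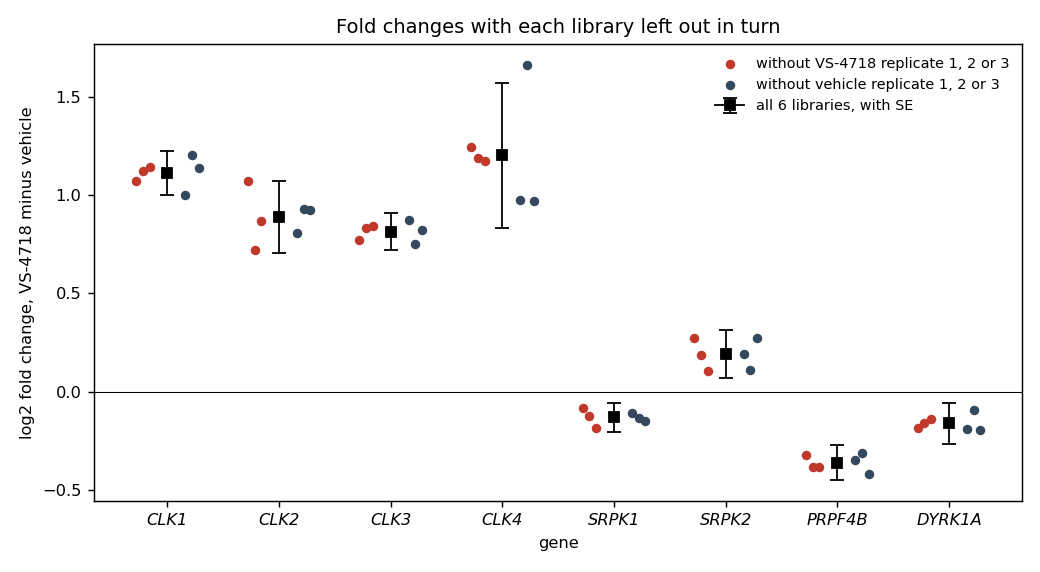
Log2 fold change of each kinase gene (VS-4718 minus vehicle) with all 6 libraries (square, bar 1 SE), without each VS-4718 library (red, left) and without each vehicle library (dark blue, right). No gene crosses 0, though only SRPK1 and SRPK2, whose groups overlap, could have done so. The widest range is that of CLK4, from 0.97 to 1.66.

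The first list holds substrates of these kinases. Of 14 SR and TRA2 protein genes 12 were tested, and 2 fell and none rose in limma at an adjusted p under 0.05 (0.0867% and 0.0433% of all tested rows were called in these directions). SRSF3, an SR protein that also binds mRNA for export, fell by 31.7% (adjusted p = 0.014), and SRSF7, another export adaptor, fell by 42.0% (adjusted p = 0.023); the list had 0 calls without vehicle replicate 1 or 3 or any 1 of the VS-4718 libraries and with limma's mean-variance trend left off, and 1 call without vehicle replicate 2. Among the others, SRSF1, the archetypal SR protein, stood at 5.92 ± 0.09 log2 units with VS-4718 and 6.34 ± 0.11 in vehicle (SD, n = 3 each; limma adjusted p = 0.21). SRSF6 had a log2 fold change of -0.36 (SE 0.06, limma adjusted p = 0.18), SRSF2 of -0.24 (SE 0.05, limma adjusted p = 0.25) and SRSF4 of -0.29 (SE 0.07, limma adjusted p = 0.30). The median log2 fold change of the 12 was -0.28, and 11 of them had a lower mean, against 58.2% of all tested rows.

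None of the 24 SR-related genes, whose products carry RS domains without being classical SR proteins, passed limma; 8 had an unadjusted p under 0.05, all with a lower mean, where 6.74% of tested rows did. The smallest p belonged to ACIN1, a component of the exon junction complex periphery, at 5.29 ± 0.06 log2 units with VS-4718 and 5.69 ± 0.08 in vehicle (SD, n = 3 each; limma adjusted p = 0.18). PNN, LUC7L3 and RBM39 had log2 fold changes of -0.35 (SE 0.08), -0.41 (SE 0.10) and -0.40 (SE 0.10). The median of the 24 was -0.12.

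Other kinases of the same CMGC group gave no call either. Of 18 such genes 13 were tested, and 1, CDK13, had an unadjusted limma p under 0.05, with a lower mean. At that threshold 6.74% of all tested rows were lower and 3.02% higher, so this count is near the share of all rows. CDK13, a kinase of the RNA polymerase II tail, stood at 3.91 ± 0.27 log2 units with VS-4718 and 4.53 ± 0.19 in vehicle (SD, n = 3 each, limma adjusted p = 0.34). DYRK2 had a log2 fold change of -0.17 (SE 0.09), HIPK1 of 0.26 (SE 0.16) and CDK8 of -0.16 (SE 0.12). The median of the 13 was -0.06, close to that of all rows.

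The 17 genes for SR protein phosphatases, import factors, SRPK chaperones and scaffolds had no call and 2 genes at an unadjusted limma p under 0.05, both with a higher mean, where 3.02% of tested rows did. SAFB, a nuclear scaffold protein that binds SRPK1, stood at 4.78 ± 0.02 log2 units with VS-4718 and 4.47 ± 0.08 in vehicle (SD, n = 3 each; limma adjusted p = 0.28). PPP1R10, a nuclear targeting subunit of protein phosphatase 1, had a log2 fold change of 0.56 (SE 0.22), SAFB2 of 0.24 (SE 0.12) and PPP2CB, a catalytic subunit of protein phosphatase 2A, of -0.12 (SE 0.06). TNPO3, which imports phosphorylated SR proteins, had one of 0.13 (SE 0.11). The median of the 17 was -0.03.

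**Figure D5:**
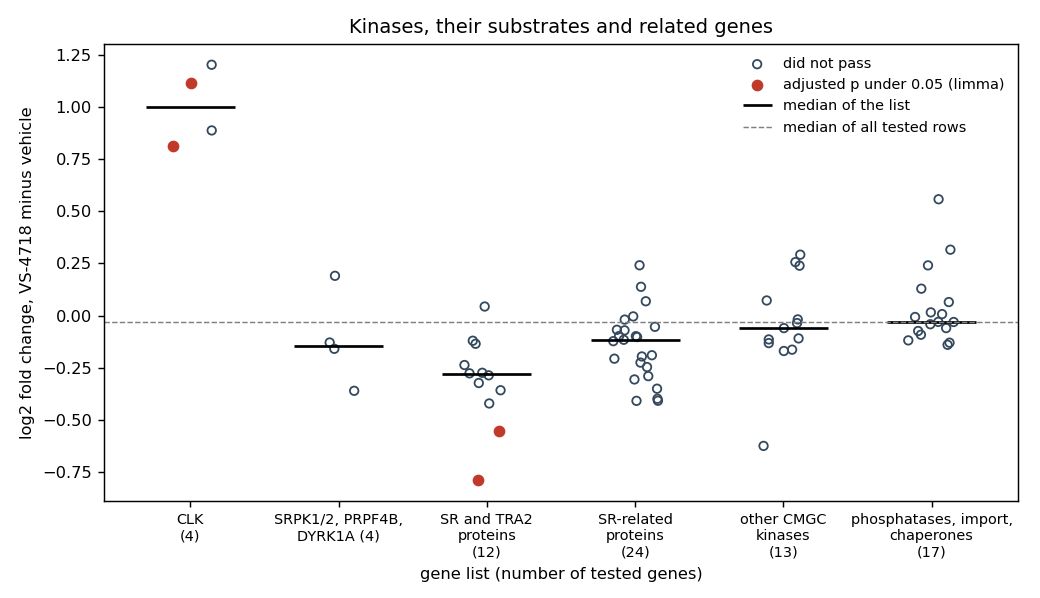
Log2 fold change (VS-4718 minus vehicle) of each tested gene in the kinase, substrate and related lists; filled red points passed limma at an adjusted p under 0.05, black bars are list medians and the dashed line is the median of all tested rows. The CLK median lies at 1.00, the SR and TRA2 median at -0.28, and the last 2 lists lie at -0.06 and -0.03, near the dashed line.

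The rows nearest to the CLK family in pattern were found by comparing vehicle-centred log2 profiles over the 6 libraries with the mean profile of CLK1 to CLK4, among 4610 tested rows at or above the median level. CMTR1, which methylates the mRNA cap, was nearest, at a root mean square difference of 0.25 log2 units. It had 39.7, 52.6 and 45.7 TPM-like units with VS-4718, against 27.2, 34.03 and 24.7 in vehicle. PDK4, a kinase that restrains pyruvate dehydrogenase, also lay at 0.25 and had 352.2, 320.8 and 353.2 with VS-4718, against 200.7, 180.2 and 202.7 in vehicle. HDAC11, a histone deacetylase, lay at 0.30 and shared the high vehicle replicate 2 of CLK4, with 36.6, 38.9 and 39.0 with VS-4718, against 13.8, 36.1 and 19.0 in vehicle. The mouse-style rows GM15421 and GM3379, at 0.28 and 0.29, completed the first 5. On the same measure CLK1 lay at 0.13, CLK2 at 0.20, CLK3 at 0.26 and CLK4 at 0.36, so CLK4 was farther from the family's mean profile than these 5 rows. Each CLK gene is itself part of that mean, which lowers its distance, and the level limit was not put on the members. Their distances and those of the 5 rows are therefore not like for like. The other 4 kinases lay at 0.62 (SRPK2) to 0.97 (PRPF4B). This likeness includes the difference between the groups and is a description only. Of the 5 rows, only PDK4 was called higher by limma (adjusted p = 0.014). The limma adjusted p of the others ran from 0.25 (CMTR1) to 0.48 (HDAC11).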

How the data were processed

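RNA of 92.1 cells was isolated with TRIzol and columns and went to a commercial provider for sequencing, per the labels' protocols. The submitters' processing notes name kallisto, with no version, and GRCh38; nothing used here states the index, annotation, strandedness or filters. The authors deposited 1 log2 value per gene symbol and library. On the linear scale the values of a library sum to between 836527 and 840714, hence TPM-like, a unit that holds no depth and allows no counting interval.

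Rows with a mean above the lowest 25% (over 0.70 log2 units) were tested, 9229 in all, with limma 3.58.1 in R 4.3.3 (trend, group as the only term, not robust), two-sided, with Benjamini-Hochberg adjustment over all of them and a threshold of 0.05. With 3 libraries against 3 an exact permutation test cannot go below 0.1, so no gene was given one. The p-values of single genes are those of the limma fit over all tested rows. The script was tested on simulated data.

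The members, lists, motifs and sequence comparisons were chosen with earlier results of these data known. Named genes are the 8 members, PTK2, in each list the called rows and up to 4 more with the smallest p, and the 5 rows nearest to the CLK profile; the lineage and other cell type markers and TNPO3 were named outside that rule, TNPO3 after its values were seen. The alternatives tried were each library left out, the replicate number as a block, median scaling, log2(value + 1), no filter, a filter at 50%, no trend and sample quality weights. Coding sequences are from GENCODE 29 and promoters from RefSeq; 7 of 8 members had a promoter. Biopython 1.88 and matplotlib 3.10.9 were used.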

Additional observations from a re-analysis of the deposited data

How the results depend on the processing

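Every fold change of the 8 kinase genes kept its sign and stayed within 1 SD of libraries under the alternatives (80 values). Most of these values could not do otherwise. The replicate block leaves the fold changes as they are, and with 3 libraries per group leaving 1 out cannot move one by 1 SD. Nor can leaving 1 out change a sign where the groups do not overlap, as in all but SRPK1 and SRPK2. Median scaling gave a CLK median of 1.03 and moved the median of all rows by 0.03 log2 units. The counts of calls were less stable. The replicate block gave 0 rows in all (793 at an unadjusted limma p under 0.05), 0 members (5) and 0 SR or TRA2 genes (8). Limma without trend gave 0 rows (910), 0 members (5) and 0 SR or TRA2 genes (8). The cause was not tested. Without a filter 8 rows and 1 member, CLK1, were called, with more rows tested. With a library left out, the number of rows called ran from 0 to 7 against 12, that of members from 0 to 2 against 2 and that of SR and TRA2 genes from 0 to 1 against 2. Without vehicle replicate 2 the members called were CLK1 and CLK4, and CLK3 was not. These fits have fewer degrees of freedom. The SR-related, other kinase and phosphatase, import and chaperone lists had 0 calls under every alternative run. Same-numbered libraries deviated from their group means with correlations of 0.13, 0.05 and 0.03 across rows, and other pairs with -0.09 to 0.05. The same-numbered pair was the highest for each vehicle library and for VS-4718 replicates 1 and 2. VS-4718 replicate 3 correlated best with another number, vehicle replicate 2 (0.049 against 0.032). The values are small, and whether a shared number marks a shared batch cannot be told from them. Depth is unknown, so how far it limits the low CLK4 row is not known.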
